A study of Homo sapiens with 36 samples.

Results

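Long non-coding RNAs (lncRNAs) were followed in LNCaP, a widely used line of human prostate cancer cells that depends on androgen, after inhibition of the cell-cycle kinase CDK4. The 10 genes are MALAT1, NEAT1, TUG1, GAS5, PCA3, PCGEM1, DRAIC, ARLNC1, PCAT1 and PCAT14. They were taken by symbol, through the Ensembl identifiers of GENCODE release 44, and all 10 are listed among the 29872 genes of the deposited table, 11849 of which are annotated as lncRNA. Cells received vehicle, AU2-94 or atirmociclib (CDK4-selective inhibitors) at 1 or 2 µM, or ribociclib (an inhibitor of CDK4 and CDK6) at 2 µM, for 24 h or 72 h. Each of the 12 groups has 3 biological replicates, giving 36 libraries, and the labels give the vehicle groups a dose of 2 µM as well. All groups are 1 cell line with no genetic change, and the 72 h wells were seeded more sparsely than the 24 h wells, so time in culture and seeding density cannot be told apart.

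MALAT1 and NEAT1 are retained in the nucleus. MALAT1 collects in nuclear speckles, the domains that store splicing factors, and NEAT1 is the scaffold on which paraspeckles are built. TUG1 is a widely expressed lncRNA found in nucleus and cytoplasm. GAS5 carries small nucleolar RNAs in its introns, and its spliced transcript is degraded by nonsense-mediated decay in growing cells and is known to accumulate when growth stops. The remaining 6 are known for prostate cancer: PCA3 is a urine marker of the disease, PCGEM1 and ARLNC1 are induced by androgen, DRAIC is a tumour-suppressive transcript repressed by androgen, PCAT1 lies upstream of MYC, and PCAT14 is a prostate-enriched transcript.

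The values are normalised counts, that is, read counts scaled by the authors to make libraries comparable. Library totals ranged from 20675156 to 22692555 normalised counts, and mitochondrially encoded genes took 6.34% to 8.66% of them. All 10 luminal prostate markers, including KLK3, TMPRSS2 and FOLH1, had a median of at least 10 normalised counts. The basal markers KRT5, TP63 and KRT15, the neuroendocrine markers CHGA, INSM1 and NEUROD1, the leukocyte markers PTPRC and CD3E, the endothelial markers PECAM1, CDH5 and KDR and the fibroblast markers DCN and PDGFRA had a median of 0, whereas COL1A1, VWF, CD68, KRT14 and SYP had medians of 490, 359, 73.6, 41.8 and 18.8, and COL3A1 ranged from 5.45 to 36.9. With treatments pooled, the basal KRT14 was called higher at both times (1.67 and 2.01, log2) and the endothelial VWF higher at 72 h (1.11). The leukocyte CD68 and fibroblast COL1A1 were called lower at 24 h (-0.82 and -0.48), while COL3A1, the other fibroblast marker tested, was called higher. Their part in the results was not tested. A gene was called when limma gave a Benjamini-Hochberg adjusted p of at most 0.05 over all genes tested (16137 at 24 h, 16341 at 72 h), and every fold change is a difference of log2(normalised count + 1).

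The 10 lncRNAs covered a wide range of levels. Per kilobase of annotated exon, the median over 36 libraries was 49288 normalised counts for MALAT1, 1984 for NEAT1, 824 for GAS5 and 594 for TUG1. It was 34.2 for PCAT1, 15.4 for DRAIC, 8.04 for ARLNC1, 4.46 for PCGEM1, 0.631 for PCA3 and 0.529 for PCAT14. The libraries of MALAT1 and of NEAT1 did not overlap with those of any other member on this scale, whereas GAS5 overlapped with TUG1, and each of the 6 prostate genes overlapped with its neighbour in the order. These lengths are unions of all annotated exons (31409 bases in 54 blocks for DRAIC), so the scale depends on the annotation. MALAT1 alone took 1.94% to 3.66% of the total and ranked between 1 and 3 of all genes, and NEAT1 ranked between 13 and 56. PCA3 reached 10 normalised counts in 16 libraries, PCGEM1 in 11 and PCAT14 in 3. PCAT14 was therefore under the filter on low values within each time point and was tested in the fit of all 36 libraries alone, while the other 9 passed it in the fits of each time point. PCGEM1 passed through 5 treated libraries at 24 h and 6 at 72 h and no vehicle library. Its values are therefore described apart and enter none of the main counts against vehicle within a time point.

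**Figure D1:**
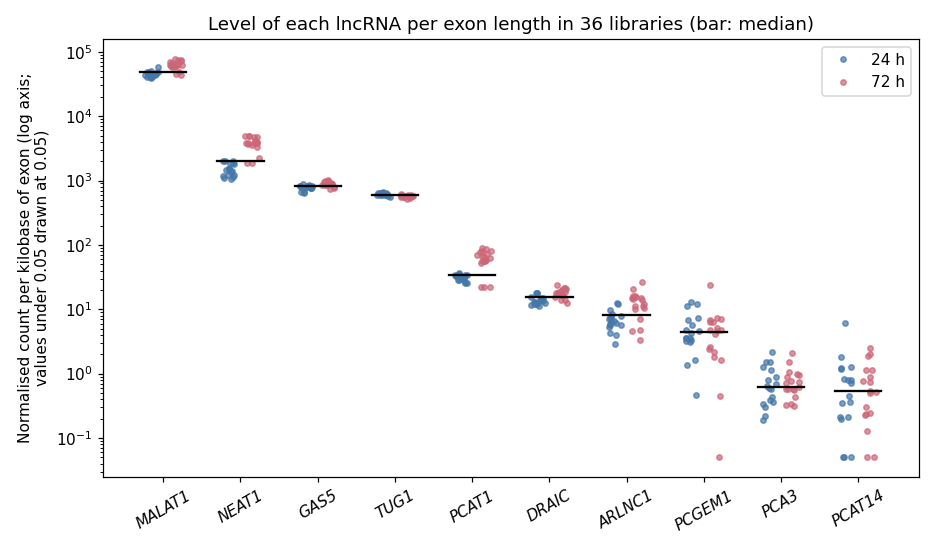
Level of each lncRNA in normalised counts per kilobase of annotated exon (log axis), one point per library and coloured by time point, with the median over 36 libraries as a bar and values under 0.05 drawn at 0.05. MALAT1 lies above all others, the medians run from 49288 down to 0.529, and PCA3, PCGEM1 and PCAT14 scatter most.

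Start-site sequence was matched for 6 of the 10 members in RefSeq (GRCh38.p14), as windows of 300 bases from 250 before to 50 after an annotated start. Not every listed start is the outer end of its gene. That of DRAIC (69561720) and the downstream one of MALAT1 (65499045) lie inside the spans given further on, as do those of PCA3. The windows of PCGEM1, MALAT1, DRAIC and GAS5 are shown because these RNAs differ in when they changed, as described further on: PCGEM1 and MALAT1 lay above vehicle at 72 h, DRAIC was lowered at 24 h and raised at 72 h, and GAS5 was raised at 24 h. Capitals mark matches to the motifs searched, read 5′ to 3′ on the gene's strand.
PCGEM1, chr2:192749595-192749894, plus strand: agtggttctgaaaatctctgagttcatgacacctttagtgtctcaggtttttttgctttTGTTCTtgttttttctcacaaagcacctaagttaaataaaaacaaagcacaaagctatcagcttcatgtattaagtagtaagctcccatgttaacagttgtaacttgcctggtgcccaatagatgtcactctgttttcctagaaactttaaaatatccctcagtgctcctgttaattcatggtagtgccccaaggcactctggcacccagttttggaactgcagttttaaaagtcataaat
MALAT1, chr11:65498795-65499094, plus strand, the downstream of its listed starts: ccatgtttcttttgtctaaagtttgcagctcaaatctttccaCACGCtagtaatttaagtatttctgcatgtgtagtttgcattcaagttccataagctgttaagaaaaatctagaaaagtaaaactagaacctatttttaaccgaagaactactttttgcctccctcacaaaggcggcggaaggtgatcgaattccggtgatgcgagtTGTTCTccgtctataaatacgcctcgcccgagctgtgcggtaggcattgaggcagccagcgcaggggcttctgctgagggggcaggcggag
DRAIC, chr15:69561470-69561769, plus strand: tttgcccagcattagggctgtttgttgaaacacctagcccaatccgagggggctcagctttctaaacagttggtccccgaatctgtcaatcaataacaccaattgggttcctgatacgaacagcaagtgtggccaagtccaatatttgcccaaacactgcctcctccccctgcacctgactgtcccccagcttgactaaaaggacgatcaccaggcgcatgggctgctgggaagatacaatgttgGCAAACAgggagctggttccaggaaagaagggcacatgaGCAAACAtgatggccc
GAS5, chr1:173868996-173869295, minus strand: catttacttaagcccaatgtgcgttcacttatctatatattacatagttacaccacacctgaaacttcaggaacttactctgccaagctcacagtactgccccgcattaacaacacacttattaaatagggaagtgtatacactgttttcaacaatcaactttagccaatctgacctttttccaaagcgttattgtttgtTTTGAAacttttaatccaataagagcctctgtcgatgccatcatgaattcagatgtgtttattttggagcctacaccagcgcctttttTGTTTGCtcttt

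Both strands were searched for 10 motifs: the full androgen response element by its name, its shorter core TGTTCT, the FOXA motifs TGTTTAC and TGTTTGC, the E2F motifs TTTCGCGC and TTTGGCGC, the MYC E-box CACGTG, the HIF motifs GCGTG and ACGTG, and the cell-cycle motif TTTGAA. The shorter core lies within the full element, and ACGTG lies within the E-box. TGTTCT was present once in the PCGEM1 window, at position -191 from the start, and once in the shown MALAT1 window, at -41. It was absent from the other MALAT1 window, and it occurs in 14.8% of all 35116 windows. DRAIC held TGTTTGC on the opposite strand at -5 and 34, GAS5 held it on its own strand at 38, and 3.89% of windows have this motif. GAS5 also held TTTGAA at -50, as do 15.2% of windows. The shown MALAT1 window held GCGTG on the opposite strand at -208, and the other MALAT1 window held it on each strand (36.5% of windows). TUG1 had CACGTG at -77 (7.26% of windows), where ACGTG also matched, and GCGTG at -124 and -68, and both windows of PCA3 had ACGTG (21.4%). The full androgen response element (in 1 window of the table) and both E2F motifs (0.515% and 0.652%) were in none of these windows. Base composition differed among the windows, with 37.7% G or C in GAS5, 38.0% in PCGEM1 and 52.0% in DRAIC against 73.7% and 46.0% in the MALAT1 windows and 67.7% in TUG1. PCA3 windows had 40.7%. These matches describe letters in short windows.

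Among the 8 members other than PCGEM1 and PCAT14, 21 of 40 comparisons with vehicle were called at 24 h, 12 higher and 9 lower, and 26 of 40 at 72 h, all higher. The balance at 24 h depended on scaling: over 9 members, PCGEM1 included, it was 8 higher and 11 lower with library totals made equal and 10 and 11 under quantile normalisation. Without vehicle replicate 3 at 24 h 14 calls were left, 8 higher and 6 lower. No call at 24 h reached an absolute log2 fold change of 1 (0 also at an unadjusted p under 0.05), and 12 did at 72 h. Over all genes, 4% to 6.08% were called past this size at 24 h by treatment, so few members would reach it at that share. By treatment at 24 h, 5 of 8 members were called with AU2-94 at 1 µM (27.8% of all genes were), 4 with AU2-94 at 2 µM (30.9%), 4 with atirmociclib at 1 µM (32%), 3 with atirmociclib at 2 µM (34.8%) and 5 with ribociclib (31.9%). By treatment at 72 h, 6, 5, 6, 5 and 4 of 8 members were called higher in the same order, where 15.4%, 14.2%, 20%, 20.9% and 15.5% of all genes were. Calls of at least 2-fold, in either direction, at 72 h numbered 2, 2, 3, 3 and 2 members, where 4.38%, 3.86%, 6.74%, 7.54% and 4.49% of all genes reached this (a log2 fold change past 1). No member was called lower at 72 h, and 1 comparison was lower at an unadjusted p under 0.05. The 5 treatments of a time point share 3 vehicle libraries, so their comparisons are not independent.

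With the 5 treatments pooled, 3 of 8 members were called higher at 24 h (20.7% of all genes) and 2 lower (19.2%). At 72 h 6 of 8 were called higher (21.7% of all genes) and 0 lower (21.7%). The median change of the 8 members was 0.04 at 24 h and 0.43 at 72 h on the log2 scale, where the median over all genes was 0.00 at both. Of the lncRNA genes tested at 72 h, 18.5% were called higher and 7.62% lower. Every one of the 15 treated libraries lay above all 3 vehicle libraries at 72 h for MALAT1, NEAT1, ARLNC1 and PCAT1 (9.96% of all genes did so), and no member had all treated libraries below (11.3%). At 24 h this held for GAS5 alone (11%), and DRAIC alone had all 15 treated libraries below vehicle (10.7%).

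**Figure D2:**
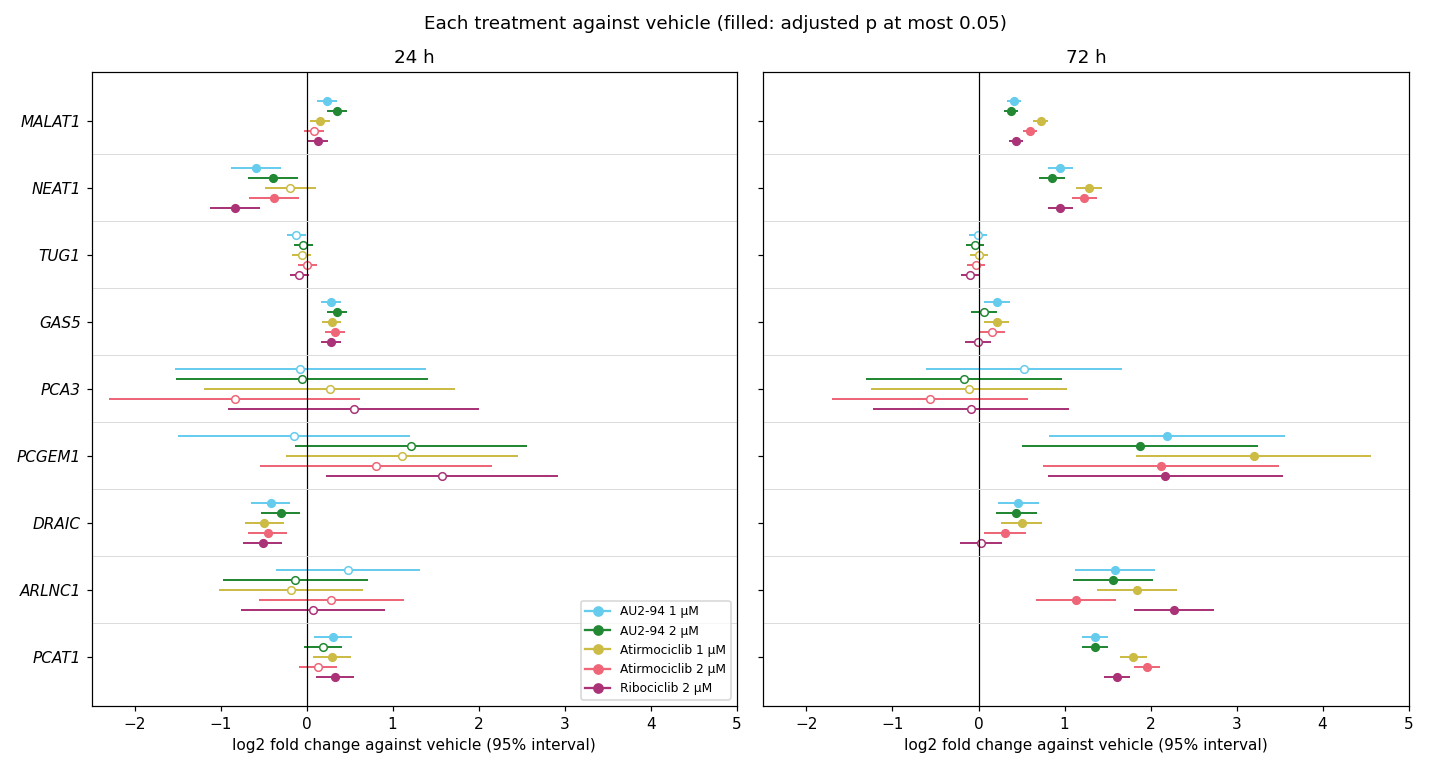
Log2 fold change of each of the 9 tested lncRNAs against vehicle with its 95% interval, for each treatment (colour), at 24 h (left) and 72 h (right), with called changes filled. At 24 h NEAT1 and DRAIC lie to the left of 0, and at 72 h MALAT1, NEAT1, ARLNC1 and PCAT1 lie to the right with all 5 treatments, as does PCGEM1, whose vehicle libraries are at the floor.

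NEAT1, the paraspeckle scaffold (chr11:65422774-65445540, plus strand, 1 exon block), turned from lower to higher than vehicle between the time points. In vehicle its normalised counts were 42506, 45204 and 45146 at 24 h and 50877, 42457 and 42523 at 72 h. At 24 h they were 26521, 34804 and 27563 with the lower dose of AU2-94, 45375, 30479 and 27759 with the higher dose, and 24988, 25605 and 23987 with ribociclib. Atirmociclib at 24 h gave 42131, 33595 and 41394 at 1 µM and 35836, 34555 and 31798 at 2 µM. Of the treated libraries 14 of 15 lay below all vehicle libraries, the exception being replicate 1 of AU2-94 at 2 µM. At 72 h the treated libraries were all above vehicle: 87673, 86517 and 87442 with AU2-94 at 1 µM, 74930, 89464 and 81276 at 2 µM, and 85587, 88270 and 87705 with ribociclib. Atirmociclib gave the highest values, 112415, 110388 and 106605 at 1 µM and 97707, 108829 and 111839 at 2 µM.

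By limma, NEAT1 fell by 0.83 ± 0.13 (log2, SE) with ribociclib at 24 h (adjusted p = 9.73e-05) and by 0.59 ± 0.13 with AU2-94 at 1 µM (adjusted p = 0.00274). The changes with AU2-94 at 2 µM (-0.39, adjusted p = 0.0327) and atirmociclib at 2 µM (-0.38, adjusted p = 0.0348) were smaller, and with atirmociclib at 1 µM the change was -0.19 (95% interval -0.47 to 0.09), which under quantile normalisation was -0.45 (adjusted p = 0.011). The NEAT1 value of AU2-94 at 2 µM moved with single libraries, to -0.61 without its replicate 1 (adjusted p = 0.000234), -0.32 without replicate 2 (0.132) and -0.25 without replicate 3 (0.185). At 72 h NEAT1 rose in every treatment, by 0.86 to 1.28 (adjusted p from 2.08e-11 to 1.98e-08), or 1.81-fold to 2.43-fold. The treatment effect therefore differed between time points, by 1.25 to 1.78 on the log2 scale in the 5 treatments (adjusted p from 1.63e-09 to 9.07e-07). NEAT1 in vehicle changed by 0.03 from 24 h to 72 h (95% interval -0.20 to 0.26). NEAT1 has a short and a long isoform with a common start, and the table holds 1 value for both.

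MALAT1, the speckle lncRNA (chr11:65497640-65508073, plus strand, 1 exon block), rose slightly at 24 h and further at 72 h. Vehicle libraries held 414518, 427356 and 426852 normalised counts at 24 h and 504191, 477690 and 457893 at 72 h. At 24 h AU2-94 gave 472137, 507414 and 514910 at 1 µM and 597025, 513636 and 517646 at 2 µM, and ribociclib gave 463645, 473309 and 455560. Atirmociclib at 24 h gave 491372, 469059 and 456042 at 1 µM and 459506, 462518 and 420647 at 2 µM, the last of these falling within the vehicle range. The 24 h groups thus lay above vehicle in 14 of 15 libraries. At 72 h AU2-94 gave 624784, 644044 and 649160 at 1 µM and 611836, 612726 and 646733 at 2 µM, and ribociclib gave 638267, 645589 and 668778. Atirmociclib at 72 h gave 781577, 777921 and 812774 at 1 µM and 702715, 732611 and 741994 at 2 µM, above the range of vehicle and of the other compounds. No treated library overlapped with vehicle at 72 h.

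At 72 h the rise of MALAT1 was 0.72 and 0.60 with atirmociclib at 1 and 2 µM, 0.44 with ribociclib and 0.41 and 0.38 with AU2-94 at 1 and 2 µM (log2, SE 0.03 each, limma adjusted p from 7.09e-12 to 1.41e-07). At 24 h the rise was 0.36 ± 0.05 with AU2-94 at 2 µM (adjusted p = 2.36e-05) and 0.24 ± 0.05 at 1 µM (adjusted p = 0.00161). It was 0.16 with atirmociclib at 1 µM (adjusted p = 0.0206) and 0.13 with ribociclib (adjusted p = 0.0476, or 0.0521 with the replicate block), and 0.08 with atirmociclib at 2 µM was not called (95% interval -0.02 to 0.19). The calls of 0.16 and 0.13 were lost when library totals were made equal (0.10 and 0.08, adjusted p = 0.146 and 0.28). Under quantile normalisation none of the MALAT1 calls at 24 h was kept (AU2-94 0 and 0.12 at 1 and 2 µM, pooled 0.0043), and the 5 rises at 72 h were each 0.25, because the values of the top ranks are then shared by all libraries. MALAT1 was also higher in vehicle at 72 h than at 24 h, by 0.18 ± 0.04 (adjusted p = 0.00963, or 0.13 and 0.0767 with equal totals). TALAM1, an antisense lncRNA at the same locus, overlaps 8121 bases or 77.8% of the MALAT1 exon and changed by 0.23 at 24 h and 0.51 at 72 h with treatments pooled, beside 0.19 and 0.51 for MALAT1. The strand setting of the counting is not given in the sources used here, so reads of the pair cannot be told apart. The mitochondrial share was 6.76% to 7.42% in vehicle and 7.75% to 8.66% with atirmociclib at 72 h. With totals made equal without mitochondrial genes and these 10 lncRNAs, all 5 rises of MALAT1 at 72 h were still called.

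**Figure D3:**
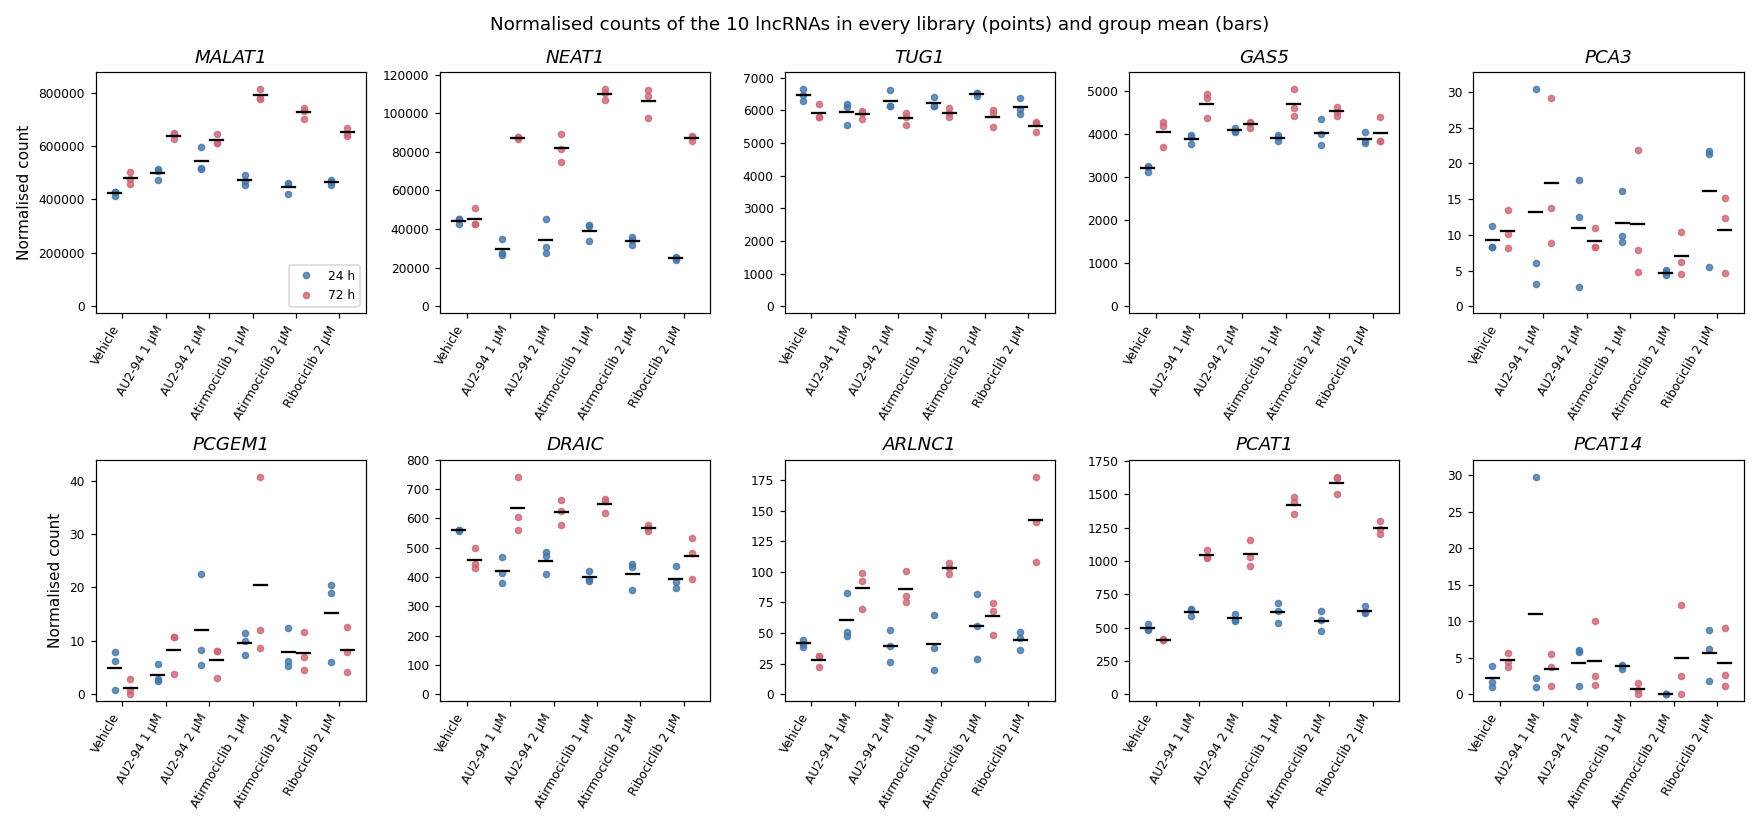
Normalised counts of each of the 10 lncRNAs by treatment, with 1 point per library at 24 h (blue) and 72 h (red) and the group mean as a black bar, on linear axes that start near 0. At 72 h NEAT1, PCAT1 and MALAT1 lie above vehicle in each treated group, DRAIC and NEAT1 lie mostly below it at 24 h, and TUG1 stays between 5328 and 6646.

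Among the prostate lncRNAs, PCAT1 changed with the smallest adjusted p. PCAT1, described as a promoter of proliferation in prostate cancer, spans 862728 bases of chromosome 8 on the plus strand with 48 exon blocks. In vehicle it was at 491, 527 and 478 normalised counts at 24 h and 403, 409 and 410 at 72 h. At 72 h AU2-94 gave 1026, 1082 and 1031 at 1 µM and 963, 1026 and 1159 at 2 µM, and ribociclib gave 1236, 1199 and 1298. Atirmociclib gave 1442, 1478 and 1351 at 1 µM and 1502, 1619 and 1630 at 2 µM. All 15 treated libraries lay above vehicle, and the atirmociclib libraries were the highest. PCAT1 rose by 1.36 to 1.96 at 72 h (log2, SE 0.07, limma adjusted p from 5.51e-14 to 8.12e-11), which is 2.56-fold to 3.88-fold.

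At 24 h the changes of PCAT1 were far smaller. AU2-94 gave 584, 628 and 638 at 1 µM and 558, 550 and 602 at 2 µM. Atirmociclib gave 624, 684 and 533 at 1 µM and 473, 621 and 558 at 2 µM, and ribociclib gave 608, 658 and 615. Replicate 1 of atirmociclib at 2 µM was below vehicle and the other 14 treated libraries were above it. The log2 changes were 0.31, 0.29 and 0.33 with the 1 µM doses of AU2-94 and atirmociclib and with ribociclib (limma adjusted p = 0.0273, 0.0299 and 0.0153), and 0.19 and 0.14 with the 2 µM doses of AU2-94 and atirmociclib were not called. With equal totals the calls of the 1 µM doses were lost for PCAT1 (0.27 and 0.24, adjusted p = 0.0517 and 0.0794). The effect on PCAT1 grew by 1.05 to 1.82 from 24 h to 72 h (adjusted p from 1.39e-12 to 1.34e-07), while in vehicle PCAT1 was lower by 0.29 at 72 h (adjusted p = 0.0289).

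Genes inside the span of PCAT1 were read beside it. PRNCR1, another prostate cancer lncRNA on the same strand, changed by 0.05 at 24 h (adjusted p = 0.652) and rose by 1.66 ± 0.08 at 72 h with treatments pooled (adjusted p = 8.53e-12). POU5F1B, a retrogene of the pluripotency factor POU5F1, rose by 1.78 ± 0.23 and the lncRNA CCAT2 by 1.36 ± 0.23 at 72 h (adjusted p = 4.93e-06 and 9.58e-05). POU5F1B overlaps PCAT1 exons by 848 bases and resembles its parent gene, so its count is uncertain. PRNCR1 and CCAT2 overlap no PCAT1 exon but lie within its span on the same strand. The libraries were prepared from total RNA, so reads of unspliced PCAT1 may be counted to them, which was not tested. LRATD2, on the opposite strand with 1409 bases of overlap, fell by 0.38 at 72 h (adjusted p = 2.14e-06). MYC, the nearest coding gene 316384 bases beyond PCAT1, changed by 0.10 at 24 h (adjusted p = 0.117) and rose by 0.31 at 72 h (adjusted p = 1.65e-06).

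**Figure D4:**
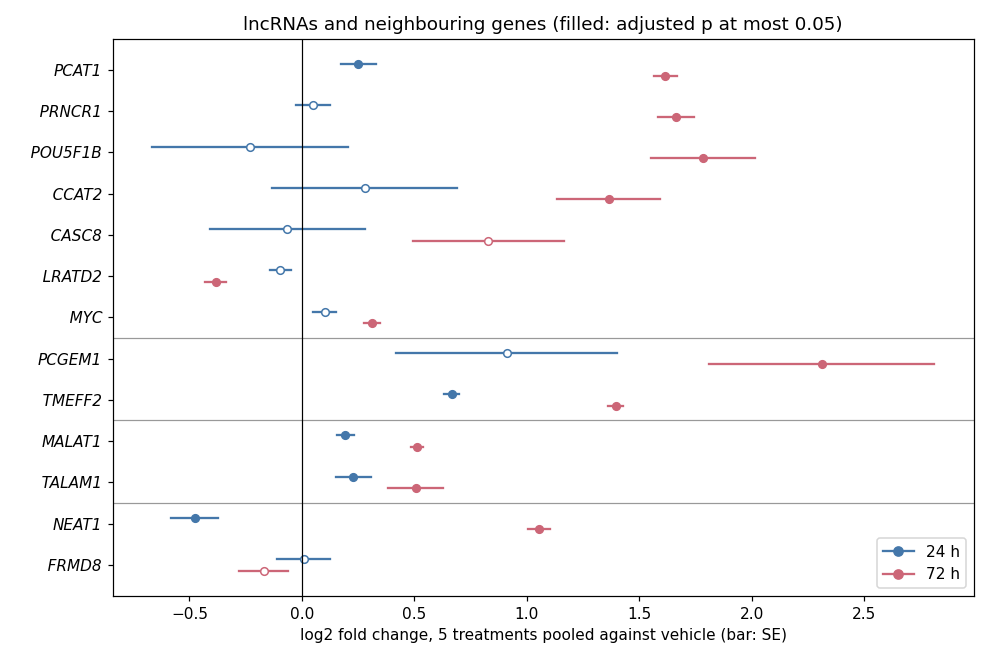
Log2 fold change of treatments pooled against vehicle at 24 h (blue) and 72 h (red), with the SE as a bar and called changes filled, for PCAT1, PCGEM1, MALAT1 and NEAT1 and genes that overlap or flank them. PRNCR1, POU5F1B and CCAT2 lie near PCAT1 at 72 h, while FRMD8 beside NEAT1 is not called at either time.

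ARLNC1, an androgen-induced lncRNA (chr16:80826074-80892682, minus strand), rose at 72 h with each treatment. Vehicle was at 41.3, 44.6 and 38.9 normalised counts at 24 h and 22.4, 31.5 and 30.9 at 72 h. At 72 h AU2-94 gave 69.8, 92.4 and 98.8 at 1 µM and 75.2, 80.5 and 101 at 2 µM, and ribociclib gave 108, 141 and 177. Atirmociclib gave 98.4, 103 and 107 at 1 µM and 47.9, 67.9 and 74.6 at 2 µM. All treated libraries were above vehicle, those of ribociclib highest. ARLNC1 rose by 2.28 with ribociclib, by 1.84 and 1.13 with atirmociclib at 1 and 2 µM, and by 1.59 and 1.57 with AU2-94 at 1 and 2 µM (log2, SE 0.22 each, limma adjusted p from 2.01e-07 to 0.000347).

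At 24 h ARLNC1 ranged from 19.7 to 82.9 normalised counts over the 15 treated libraries with a median of 47.5, and was above vehicle in 9 and below it in 5. No treatment was called at 24 h, with log2 changes from -0.18 to 0.48 and 95% intervals from -1.01 to 1.31. The change between time points was called with AU2-94 at 2 µM, atirmociclib at 1 µM and ribociclib (1.70, 2.02 and 2.20, adjusted p = 0.00913, 0.00173 and 0.000797). For AU2-94 at 1 µM and atirmociclib at 2 µM it was 1.11 and 0.84 (adjusted p = 0.0897 and 0.211). CDYL2, its neighbour on the same strand, rose by 0.44 at 24 h and by 0.56 at 72 h with treatments pooled.

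PCGEM1, a prostate-specific androgen-induced lncRNA (chr2:192749845-192776899, plus strand, 4 exon blocks), was near the detection limit in vehicle at 72 h and at low levels in treated cells. Vehicle at 72 h gave 0.780, 0 and 2.76 normalised counts, at or under a floor of 3, so no fold against it is given as a bound. At 72 h AU2-94 gave 10.7, 3.68 and 10.7 at 1 µM and 8.03, 3.05 and 8.02 at 2 µM, and ribociclib gave 7.95, 12.5 and 4.08. Atirmociclib gave 12.0, 8.61 and 40.7 at 1 µM and 4.50, 6.99 and 11.6 at 2 µM. All 15 treated libraries exceeded the 3 vehicle libraries, the lowest by little, and replicate 3 of atirmociclib at 1 µM stood far above the others. The fit gave log2 differences of 1.87 to 3.20 for PCGEM1 (SE 0.65), which are given as a description, since the gene entered the fit through treated libraries alone. Without that replicate the difference for its group was 2.57.

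At 24 h PCGEM1 in vehicle was at 7.90, 0.800 and 6.12 normalised counts, and treated libraries ranged from 2.37 to 22.4 with a median of 7.37. The groups overlapped, and no difference was called (the largest was 1.58 with ribociclib, limma adjusted p = 0.0674, or 0.0223 with the replicate block). The change of the PCGEM1 effect between time points was not called in any treatment (0.60 to 2.34), except with AU2-94 at 1 µM once the replicate block was added (2.34, adjusted p = 0.0373, against 0.0672 without). With a pseudocount of 8, a scale that shrinks low values, 4 of the 5 differences of PCGEM1 at 72 h were 0.64 to 0.81 (limma adjusted p from 0.0837 to 0.185). TMEFF2, the nearest coding gene to PCGEM1, 554912 bases away on the opposite strand, rose by 0.67 at 24 h and 1.39 at 72 h with treatments pooled (adjusted p = 2.12e-11 and 2.31e-15).

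DRAIC, the tumour-suppressive transcript repressed by androgen (chr15:69462921-69843120, plus strand), went down at 24 h and up at 72 h. Vehicle at 24 h gave 562, 558 and 562 normalised counts. AU2-94 gave 468, 380 and 414 at 1 µM and 472, 486 and 410 at 2 µM. Atirmociclib gave 393, 385 and 419 at 1 µM and 356, 436 and 443 at 2 µM, and ribociclib gave 383, 436 and 363. All treated libraries were below vehicle, and DRAIC fell by 0.30 to 0.51 with the 5 treatments (log2, SE 0.10, limma adjusted p from 0.00085 to 0.0324). At 72 h vehicle gave 431, 445 and 499. AU2-94 then gave 562, 742 and 604 at 1 µM and 577, 663 and 626 at 2 µM. Atirmociclib then gave 659, 665 and 619 at 1 µM and 566, 578 and 558 at 2 µM, and ribociclib gave 483, 395 and 535.

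AU2-94 and atirmociclib libraries did not overlap with vehicle at 72 h, whereas ribociclib libraries did. DRAIC rose by 0.31 to 0.50 with AU2-94 and atirmociclib (limma adjusted p from 0.00124 to 0.0301) and differed by 0.03 with ribociclib (95% interval -0.20 to 0.26). The smallest rise of DRAIC, with atirmociclib at 2 µM, was 0.23 with equal totals (adjusted p = 0.103). The effect changed between time points in all 5 treatments, by 0.54 to 0.99 (adjusted p from 1.18e-05 to 0.0103). In vehicle DRAIC changed by -0.29 from 24 h to 72 h, which was not called. With equal totals this change was -0.35 and was called (limma adjusted p = 0.049). RPLP1, the ribosomal protein gene beside DRAIC, rose by 0.38 at 24 h and changed by -0.05 at 72 h (adjusted p = 0.18). TLE3, a corepressor gene on its other side, fell by 0.14 at 24 h and rose by 0.24 at 72 h (adjusted p = 0.00279 and 0.000491).

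GAS5, the small nucleolar RNA host (chr1:173858559-173868882, minus strand, 4 exon blocks), rose with every treatment at 24 h. Vehicle gave 3236, 3121 and 3255 normalised counts, AU2-94 gave 3934, 3769 and 3986 at 1 µM and 4044, 4153 and 4079 at 2 µM, and ribociclib gave 3804, 4048 and 3837. Atirmociclib gave 3943, 3834 and 3976 at 1 µM and 4341, 4008 and 3745 at 2 µM. The treated libraries all lay above vehicle, with changes of 0.28 to 0.35 (log2, SE 0.05, limma adjusted p from 1.72e-05 to 0.000223). Vehicle itself was higher at 72 h, at 4285, 3708 and 4183, a rise of 0.34 ± 0.06 (adjusted p = 0.000261).

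At 72 h AU2-94 gave 4378, 4927 and 4829 normalised counts of GAS5 at 1 µM and 4279, 4149 and 4256 at 2 µM. Atirmociclib gave 4610, 4422 and 5044 at 1 µM and 4430, 4517 and 4639 at 2 µM, and ribociclib gave 3842, 4407 and 3845. Of these, 10 libraries lay above vehicle and 5 within its range. GAS5 was called higher with AU2-94 and atirmociclib at 1 µM (0.22 and 0.21, limma adjusted p = 0.0165 and 0.0161), not at 2 µM (0.06 and 0.16, adjusted p = 0.521 and 0.0589) nor with ribociclib (-0.01, 95% interval -0.15 to 0.13). The pooled rise of GAS5 at 72 h was 0.13 ± 0.05 with an adjusted p of 0.04999, and with the replicate block it was 0.0586. The effect was smaller at 72 h than at 24 h with AU2-94 at 2 µM and ribociclib (-0.29 in both, adjusted p = 0.0113 and 0.0107) and in the pooled contrast (-0.18, adjusted p = 0.0325, or -0.12 and 0.165 with totals made equal without mitochondrial genes and these lncRNAs).

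TUG1, PCA3 and PCAT14 showed no called change in the fits as designed. TUG1 (chr22:30969245-30979395, plus strand, annotated as protein-coding in this release) ranged from 5328 to 6646 normalised counts over all 36 libraries, a narrow spread. Its log2 changes against vehicle lay between -0.12 and 0.01, with SEs of 0.04 to 0.05, and 2 of 10 had an unadjusted p under 0.05. With equal totals, and likewise under quantile normalisation, TUG1 was called lower at 24 h with AU2-94 at 1 µM and ribociclib (-0.16 and -0.14, limma adjusted p = 0.0145 and 0.0227) and in vehicle from 24 h to 72 h (-0.18, adjusted p = 0.00859). PCA3 (chr9:76691980-76863307, plus strand), which runs opposite to PRUNE2 and shares 1060 exon bases with it, ranged from 2.73 to 30.4. Its log2 changes lay between -0.84 and 0.55 with 95% intervals reaching from -2.29 to 2.00, so changes of several-fold were not detectable at this depth. PRUNE2 fell by 0.42 at 24 h and 0.56 at 72 h with treatments pooled (limma adjusted p = 7.34e-10 and 1.66e-11). PCAT14 (chr22:23536881-23547797, plus strand) had 5 libraries listed at 0, of which 3 were the whole group of atirmociclib at 2 µM for 24 h, and its highest value was 29.8 in replicate 1 of AU2-94 at 1 µM for 24 h, whose other replicates were at 0.977 and 2.24.

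At matched dose and time, 13 of 72 comparisons of the 9 members between compounds were called, 10 higher and 3 lower, and 12 of them were at 72 h. At 24 h 1 member was called for atirmociclib against AU2-94 at 2 µM (9.44% of all genes were), and none at 1 µM (4.64%), none for ribociclib against AU2-94 (0.0372%) and none for atirmociclib against ribociclib (4.64%). At an unadjusted p under 0.05, 5 of these 36 comparisons differed. Among them, NEAT1 was higher with atirmociclib than with ribociclib by 0.45 (limma adjusted p = 0.0631), which was 0.0123 in the fit of all 36 libraries, 0.00275 with those groups alone and 0.00645 without replicate 1 of AU2-94 at 2 µM. NEAT1 with atirmociclib against AU2-94 at 1 µM (0.40) and MALAT1 with ribociclib against AU2-94 (-0.22) were called in the fit of all 36 libraries (adjusted p = 0.0299 and 0.016). The 1 call was MALAT1, lower by 0.28 ± 0.05 with atirmociclib than with AU2-94 (limma adjusted p = 0.00178). At 72 h 3 members were called for atirmociclib against AU2-94 at 1 µM (8.24%), 3 at 2 µM (19.8%), 2 for ribociclib against AU2-94 (3.34%) and 4 for atirmociclib against ribociclib (9.18%).

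MALAT1, NEAT1 and PCAT1 were each higher with atirmociclib than with AU2-94 at 72 h. The differences at 1 and 2 µM were 0.31 and 0.22 for MALAT1 (limma adjusted p = 7.49e-06 and 0.000119), 0.33 and 0.38 for NEAT1 (0.00277 and 0.000378) and 0.44 and 0.60 for PCAT1 (0.000242 and 3.58e-06). All 3 were also higher with atirmociclib than with ribociclib, by 0.16, 0.28 and 0.35 (adjusted p = 0.00514, 0.00872 and 0.00224). Under quantile normalisation the 3 NEAT1 differences were 0.06, 0.09 and 0.04 and none was called, while the MALAT1 ones were 0 by construction, since this gene then holds the same top rank in each library. With equal totals the MALAT1 difference from ribociclib was 0.09 (adjusted p = 0.0869). ARLNC1 ran the other way, lower by 1.15 ± 0.22 with atirmociclib than with ribociclib (adjusted p = 0.00174). Against AU2-94 at 2 µM, ARLNC1 was higher by 0.71 with ribociclib (adjusted p = 0.0818, or 0.0202 with the replicate block).

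Ribociclib and AU2-94 at 2 µM differed at 72 h in DRAIC (-0.41, limma adjusted p = 0.0463) and PCAT1 (0.25, adjusted p = 0.048), calls that the replicate block took to 0.058 and 0.0553. MALAT1 and NEAT1 differed between these compounds by 0.06 (95% interval -0.01 to 0.13) and 0.09 (-0.04 to 0.23). GAS5 and TUG1 were not called in any pair at either time, and their 95% intervals over the 8 pairs lay between -0.21 and 0.31. Between 1 and 2 µM of the same compound, 0 of 36 comparisons were called and 6 had an unadjusted p under 0.05. Over all genes, 0.409% were called for AU2-94 and 0.0124% for atirmociclib at 24 h, and 0% and 2.19% at 72 h. For ARLNC1 the difference between doses of atirmociclib at 72 h was -0.71 (adjusted p = 0.0929), which the replicate block took to 0.0249.

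**Figure D5:**
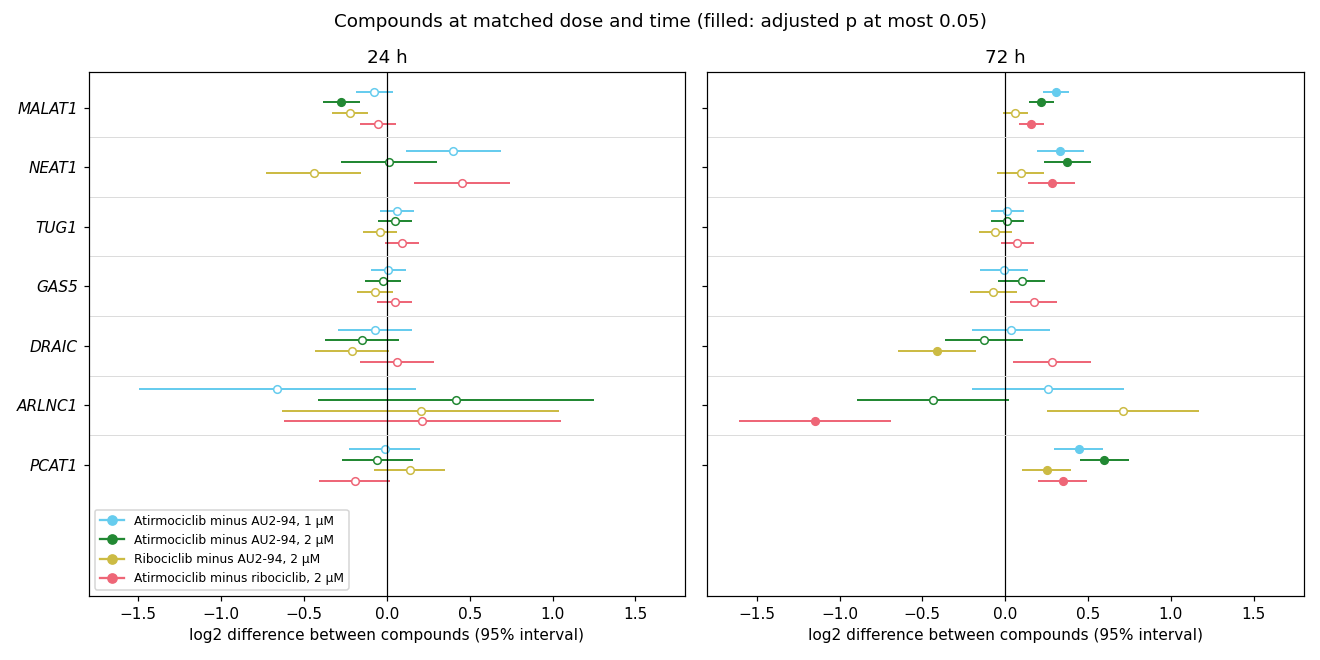
Log2 difference between compounds at matched dose, with its 95% interval, at 24 h (left) and 72 h (right) for the 7 best-detected lncRNAs, with called differences filled. At 72 h MALAT1, NEAT1 and PCAT1 lie to the right of 0 for atirmociclib against both other compounds, and ARLNC1 lies at -1.15 for atirmociclib against ribociclib.

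The change of effect, at 72 h minus 24 h, was called in 24 of 50 member-by-treatment comparisons, 22 upward and 2 downward. An upward change need not be a larger effect: DRAIC with ribociclib was lower at 24 h and near vehicle at 72 h. Over all genes, 9.26% to 11.7% were called upward by treatment and 9.28% to 11.5% downward. Of lncRNA genes, 6.76% to 8.27% were called upward and 2.72% to 3.36% downward. By treatment, 4 members were called with AU2-94 at 1 µM (21.6% of all genes), 5 at 2 µM (18.5%), 5 with atirmociclib at 1 µM (21.9%), 4 at 2 µM (21.6%) and 6 with ribociclib (20.2%). With treatments pooled, 6 of 10 were called (29.4%): NEAT1 by 1.53, ARLNC1 by 1.58, PCAT1 by 1.36, DRAIC by 0.78 and MALAT1 by 0.32 upward, and GAS5 by 0.18 downward. In vehicle alone, 3 of 10 members differed between 24 h and 72 h (7.5%), MALAT1 and GAS5 upward and PCAT1 downward. At an unadjusted p under 0.05, 6 differed, 2 upward and 4 downward. Without a call, the vehicle mean went from 4.94 at 24 h to 1.18 at 72 h for PCGEM1 and from 41.6 to 28.3 for ARLNC1. Treated libraries of PCGEM1 had medians of 7.37 and 8.03, so its difference at 72 h goes with a lower vehicle. The members counted here include PCGEM1 and PCAT14, which reached 10 normalised counts in treated libraries alone and were not called.

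Transcripts of the proteins that assemble with NEAT1 and MALAT1 were read from lists, which were chosen with earlier results of these data known. Protein levels were not measured in these libraries. Of 30 genes of paraspeckle proteins, 5 were called higher and 18 lower at 24 h with treatments pooled. At 72 h 4 were called higher and 17 lower, and the median log2 changes were -0.16 and -0.15. Of all genes, 20.7% were called higher and 19.2% lower at 24 h, and 21.7% each way at 72 h. HNRNPH3, a splicing regulator, fell by 0.78 ± 0.06 at 24 h and by 0.59 ± 0.05 at 72 h, and RBMX, another, by 0.56 and 0.49. Of 26 genes of nuclear speckle proteins, 2 were called higher and 16 lower at 24 h and 5 higher and 11 lower at 72 h. The splicing factors SRSF7 and TRA2B fell by 0.48 and 0.33 at 24 h and by 0.68 and 0.58 at 72 h, and CLK3, a kinase of splicing factors, rose by 0.42 and 0.51.

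Host genes of small nucleolar RNAs other than GAS5 were read in the same way, against the same shares of all genes. Of 21, 11 were called higher and 4 lower at 24 h (median 0.25), and 0 higher and 6 lower at 72 h (median -0.07). Their effect at 72 h minus that at 24 h was called higher in 2 and lower in 13 (29.4% of all genes in either direction). EPB41L4A-AS1 rose by 1.02 ± 0.12 at 24 h and changed by 0.13 at 72 h (limma adjusted p = 0.189), DANCR rose by 0.46 at 24 h and fell by 0.31 at 72 h, and SNHG1 fell by 0.40 and 0.60. Of 10 nonsense-mediated decay factors, 4 were called lower at 24 h (19.2% of all genes) and 1 at 72 h (21.7%), and none higher. SMG9, a partner of the kinase that starts that decay, fell by 0.54 ± 0.14 at 24 h and changed by -0.02 at 72 h (limma adjusted p = 0.00392 and 0.913). Of 12 androgen-regulated coding genes, 10 were called higher at each time point (20.7% and 21.7% of all genes), 1 lower at 24 h and none lower at 72 h. TMPRSS2, a membrane protease, rose by 1.14 and 1.84, KLK2 by 0.64 and 1.27 and KLK3, which encodes prostate-specific antigen, by 0.37 and 1.26.

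The pattern of each lncRNA over the 12 group means of log2(normalised count + 1) was compared with that of 12468 other genes, as a description in which all points share libraries. NEAT1 was most like LTBP3 and SNAPC4 (Pearson r = 0.987 and 0.983), PCAT1 like ABCC4 and DLGAP4 (0.984 and 0.982), MALAT1 like TP53INP2 and NOTCH3 (0.969 and 0.967), DRAIC like ENKD1 and PRKAA2 (0.948 and 0.945) and GAS5 like EFNA3 and OSBPL9 (0.946 and 0.940). ARLNC1 was most like NUMA1 and PLD2 (0.921 and 0.917), PCGEM1 like NUCB1 and DYNC1LI2 (0.919 and 0.910) and TUG1 like ZNF330 and CTU1 (0.916 and 0.908). For PCAT14 and PCA3 the highest values were 0.831 and 0.828 (PKP1 and ABI2).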

How the data were processed

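RNA sequencing of LNCaP cells gave 36 libraries in 12 groups of 3 biological replicates, grouped by the sample labels. The submitters' processing notes name STAR 2.6.1d, DESeq2 and GRCh38, while the annotation release, counter and strand setting are not given in the sources used here. The authors deposited normalised counts, here treated as a signal: on a read scale, but not whole numbers (19.2% to 50.3% of values up to 20 per library were multiples of 1 step within 0.02 of it), so no count test was run. Values near the floor of 3 normalised counts are limited by depth, and that floor covers counting error only.

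Genes with at least 10 normalised counts in at least 3 libraries of the fit were tested on a log2 scale after adding 1, by limma 3.58.1 (R 4.3.3; lmFit, then eBayes with trend). Each fit held the 6 groups from 1 time point or, for changes between time points, all 12 groups (16850 genes), with Benjamini-Hochberg adjustment over all genes tested in a contrast. The members and the gene lists were chosen with earlier results of these data known. Genes named were the 10 members, genes overlapping or flanking them, up to 3 genes per list with the largest mean change and a mean of at least 50, and the 2 genes most like each member over group means. The fits held groups and no replicate term. Because the labels also name each replicate number a batch, a fit with the number as a block was the alternative. The deviations of same-numbered libraries correlated at 0.0018 on average at 24 h (45 pairs, from -0.09 to 0.11) and at -0.0022 at 72 h (from -0.08 to 0.05), and those of differently numbered ones at -0.0009 and 0.0011. The fits were checked on simulated data in which known changes had been placed. Alternatives covered the pseudocount, filter, normalisation, replicate block, trend, libraries fitted and leaving out each library. Some genes of the lists and loci are not reported here.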

Additional observations from a re-analysis of the deposited data

Results flagged for a closer look

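The lncRNAs whose treatment effect at 72 h differed from that at 24 h, by the test of the difference itself in limma over 36 libraries, are given here as the effect at 72 h minus the effect at 24 h on the log2 scale. For NEAT1 it was 1.54 and 1.25 with AU2-94 at 1 and 2 µM, 1.47 and 1.61 with atirmociclib at 1 and 2 µM, 1.78 with ribociclib and 1.53 with treatments pooled. NEAT1 is the one member besides DRAIC that lay below vehicle at 24 h and above it at 72 h.

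DRAIC gave 0.88 and 0.74 with AU2-94, 0.99 and 0.76 with atirmociclib, 0.54 with ribociclib and 0.78 with treatments pooled. PCAT1 gave 1.05 and 1.17 with AU2-94, 1.51 and 1.82 with atirmociclib, 1.28 with ribociclib and 1.36 with treatments pooled.

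MALAT1 gave 0.18 with AU2-94 at 1 µM (adjusted p = 0.0409, or 0.0505 with the replicate block), 0.56 and 0.52 with atirmociclib at 1 and 2 µM, 0.31 with ribociclib and 0.32 with treatments pooled. ARLNC1 gave 1.70 with AU2-94 at 2 µM, 2.02 with atirmociclib at 1 µM, 2.20 with ribociclib and 1.58 with treatments pooled. GAS5 went the other way, with -0.29 for AU2-94 at 2 µM, -0.29 for ribociclib and -0.18 with treatments pooled. Time point and seeding density cannot be told apart in these values.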

How the results depend on the processing

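The rises of MALAT1, NEAT1, PCAT1 and ARLNC1 at 72 h were called in all 5 treatments under each alternative that kept the gene and with each library left out. For MALAT1 the values under quantile normalisation are set by its rank in each library, so that setting cannot show the size of its rise. Between compounds, 4 calls were left under quantile normalisation, against 13, and MALAT1 differences under it are set by construction, since the gene holds a top rank in every library. Between doses 1 call appeared with equal totals, 1 with equal totals without mitochondrial genes and members and 1 with the replicate block (0 to 1 with single libraries left out), against 0. In vehicle between time points the count ran from 1 to 3 with single libraries left out, and was 1 without replicate 1 at 24 h or without replicate 1 at 72 h. The direction of these calls depended on scaling, with 2 higher and 1 lower in the main fit. With equal totals 1 was higher and 3 lower, and under quantile normalisation 1 was higher and 2 lower. Another scaling moved the median of all genes by at most 0.105 downward (-0.105) and 0.101 upward. Under equal totals TUG1 was called lower at 24 h with treatments pooled (-0.11, adjusted p = 0.0169), as under quantile normalisation (-0.10, adjusted p = 0.0272) and, with AU2-94 at 1 µM, in the fit of all 36 libraries (adjusted p = 0.0425). With only the groups compared, PCGEM1, PCA3 and PCAT14 could not be fitted in some comparisons. With a mean filter of 100, PCA3, PCGEM1, ARLNC1 and PCAT14 could not be fitted.

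The replicate block, which uses the pairing of libraries by number, changed the calls printed beside the results and no others: PCGEM1, ARLNC1, MALAT1, GAS5, DRAIC and PCAT1 each have at least 1 such value in the text.

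Single libraries decided several small calls. NEAT1 at 24 h lost its calls with AU2-94 at 2 µM (adjusted p up to 0.185) without replicate 2 or 3 of that group or any 1 vehicle library, and with atirmociclib at 2 µM (up to 0.109) without replicate 2 or 3 of that group or any 1 vehicle library. DRAIC lost the call with AU2-94 at 2 µM for 24 h without replicate 3 of that group or any 1 vehicle library (up to 0.147), and with atirmociclib at 2 µM for 72 h without any 1 library of that group or vehicle replicate 1 or 2 (up to 0.103). PCAT1 lost its calls at 24 h without vehicle replicate 3 and, outside ribociclib, replicate 1 (up to 0.0953 and 0.077), or without replicates 2 and 3 of AU2-94 at 1 µM, 1 and 2 of atirmociclib at 1 µM and 2 of ribociclib, each in turn (up to 0.154). The pooled call of PCAT1 at 24 h was lost without vehicle replicate 1 or 3 (0.0586 and 0.0771). MALAT1 lost the call with atirmociclib at 1 µM for 24 h without replicate 1 of that group or of vehicle (0.0966 and 0.0715), and with ribociclib without any 1 of 8 libraries (up to 0.134). GAS5 with treatments pooled at 72 h was lost without any 1 of 13 libraries, the most without vehicle replicate 2 (0.06, adjusted p = 0.402). That library, or replicate 3 of atirmociclib at 1 µM or 2 or 3 of AU2-94 at 1 µM, also ended the GAS5 calls of those groups (up to 0.105). PCGEM1 at 72 h had adjusted p up to 0.154 without vehicle replicate 2. Of the ribociclib against AU2-94 calls at 72 h, DRAIC was lost without any 1 of 14 libraries and PCAT1 of 16 (up to 0.226 and 0.176). In vehicle between time points, PCAT1 was lost without any 1 library but replicate 3 at 24 h (up to 0.129), and MALAT1 without replicate 1 at 24 h or 72 h (up to 0.0747). The pooled change of the GAS5 effect between time points was lost without vehicle replicate 1 or 2 at 24 h or 1 or 3 at 72 h (up to 0.142), and that of MALAT1 with AU2-94 at 1 µM without any 1 of 7 libraries (up to 0.135).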

Other observations

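Lists of other lncRNAs, chosen with results of these data known, were read beside the 10 genes. Of 18 other prostate cancer lncRNAs tested, 10 were called higher and 3 lower at 24 h, and 9 higher and 3 lower at 72 h (20.7% and 19.2% of all genes at 24 h, 21.7% each way at 72 h), with median log2 changes of 0.25 and 0.43 with treatments pooled. TMPO-AS1, an antisense partner of the cell-cycle gene TMPO, fell by 2.04 ± 0.13 at 24 h and by 1.37 ± 0.13 at 72 h (limma adjusted p = 5.43e-10 and 9.51e-08), and PCAT6 rose by 0.74 and 0.81. Strand was not stated for the counting, so reads of TMPO-AS1 and of its partner gene cannot be told apart.

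Of other nuclear non-coding RNAs, 1 of 7 was called higher and 1 lower at 24 h, and 4 of 8 higher and 2 lower at 72 h, beside the same shares of all genes. CDKN2B-AS1, which runs opposite to the CDK4 inhibitor gene CDKN2B, fell by 2.37 ± 0.38 at 24 h and by 1.62 ± 0.15 at 72 h (limma adjusted p = 5.95e-05 and 7.3e-08). TERC, the RNA component of telomerase, rose by 0.57 ± 0.07 at 24 h and by 0.22 ± 0.07 at 72 h (adjusted p = 3.24e-06 and 0.0126). FIRRE, a nuclear lncRNA of the X chromosome, changed by 0.39 at 24 h (adjusted p = 0.258) and rose by 0.71 at 72 h (adjusted p = 0.00985).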
